A study of Homo sapiens with 12 samples.

Results

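The genes described here encode the nonmuscle actins (ACTB, ACTG1), the alpha-actinins and filamins that crosslink actin filaments (ACTN1, ACTN4, FLNA, FLNC), the heavy chains of nonmuscle myosin II (MYH9, MYH10) and zyxin (ZYX), an adaptor of focal adhesions and stress fibres. They are 9 listed genes of the 20037 protein-coding genes on the assembled chromosomes, and every deposited summit inside one of them or within 10 kb was taken, which gave 104 of 188019 summits. A summit is the position of the highest signal in a called peak, and 1 called interval can hold several. Accessibility was measured by ATAC-seq, in which a transposase cuts and tags open chromatin, in HT1080, an established human fibrosarcoma line and the single cell line of the study. The cells had migrated for 48 h in gels of rat tail type I collagen, with 4 libraries from the low concentration of 0.3 mg/mL, 4 from the medium one of 1.0 mg/mL and 4 from the high one of 1.7 mg/mL, and all 12 received 20 µM GM6001, a broad inhibitor of matrix metalloproteinases. The peak list analysed here was 1 list for all 3 groups with no value per library, so the values below have no replicates and none of them compares concentrations.

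Actin filaments are the tracks on which a cell pulls. Alpha-actinin dimers bundle the filaments, filamin dimers join them at wide angles into networks, and nonmuscle myosin II slides them past each other to make tension. Zyxin collects at focal adhesions and at strained stress fibres, where it brings in VASP and alpha-actinin. Transcription of many of these genes is known to be controlled by serum response factor (SRF), which binds the CArG box, and by its cofactors of the MRTF family, which are released when monomeric actin is used up.

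The upstream sequences below are shown because the starts of these genes carried the strongest signal at most of them, and because ACTG1 and FLNA, which both hold a CArG box, differed in whether a summit was called. Each sequence is from RefSeq (GRCh38.p14) and reads 5′ to 3′ towards the start. The promoter table held 8 of the 9 genes, and ACTB was not among them. In ACTG1 (chr17:81512800-81513049, minus strand), FLNA (chrX:154374635-154374884, minus strand) and the downstream start of ACTN1 (chr14:68977667-68977766, minus strand) the capitals mark the CArG box and, in ACTG1 only, also CCAAT. In ZYX (chr7:143381095-143381344, plus strand) they mark a CArG-like box with 1 departure from the strict letters.
ACTG1: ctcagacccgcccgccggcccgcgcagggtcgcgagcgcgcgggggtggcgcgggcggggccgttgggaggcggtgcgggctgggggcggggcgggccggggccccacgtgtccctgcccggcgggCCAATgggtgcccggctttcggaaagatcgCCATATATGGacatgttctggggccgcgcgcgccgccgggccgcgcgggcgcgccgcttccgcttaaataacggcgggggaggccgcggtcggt
FLNA: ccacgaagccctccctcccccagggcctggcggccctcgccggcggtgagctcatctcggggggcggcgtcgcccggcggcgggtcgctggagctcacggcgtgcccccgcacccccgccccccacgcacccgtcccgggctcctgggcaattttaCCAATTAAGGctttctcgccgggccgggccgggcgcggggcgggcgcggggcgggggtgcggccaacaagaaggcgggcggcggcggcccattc
ACTN1 downstream start: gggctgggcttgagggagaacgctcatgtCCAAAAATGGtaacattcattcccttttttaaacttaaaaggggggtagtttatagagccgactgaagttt
ZYX: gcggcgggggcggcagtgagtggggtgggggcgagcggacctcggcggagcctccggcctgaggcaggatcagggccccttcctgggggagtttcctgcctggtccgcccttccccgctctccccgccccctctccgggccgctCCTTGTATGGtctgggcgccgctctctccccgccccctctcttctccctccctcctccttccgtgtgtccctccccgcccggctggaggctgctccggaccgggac

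The strict CArG box was present in the 300-base promoter windows of ACTG1 and FLNA, 2 of 8 members, whereas 1.21% of 15843 coding promoters held it (192 promoters, 1 window per gene, both strands). It began 94 bases before the start in both genes. Of the 192 coding promoters with the box, 54.2% had a start summit, beside 64.7% of all coding genes with a listed start. In ACTG1 the box, CCATATATGG, lay inside the called interval, which spans the start, and 111 bp from its summit. In FLNA the box, CCAATTAAGG, lay in no called interval, and the nearest summit was 3376 bp away; its first letters are also a CCAAT match. The downstream start of ACTN1, the third of its 4 listed starts, held CCAAAAATGG, again inside a called interval. With 1 of the middle 6 letters allowed to be C or G, a search chosen after the sequences were seen, ZYX and ACTN4 also matched, and 7.69% of coding promoters did. The ACTN4 match, CCTTTTCTGG, lay 8 bp from the start summit.

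Summits were called within 1000 bp of the listed start at 6 of the 8 members with one: ACTG1, ACTN1, ACTN4, MYH9, MYH10 and ZYX. Among all coding genes with a listed start the share was 64.7% (10249 of 15843). FLNA and FLNC had none. ACTB, which has no listed start in the table used, had a strong summit 582 bp inside its higher-coordinate end, while 65.7% of all coding genes had one or more summits within 1000 bp of either end. With any listed start counted, a setting chosen after seeing the data, the members stayed at 6 of 8, beside 67.7% of coding genes. Every member had at least 4 summits inside the gene or within 10 kb. In that window 54.3% of all coding genes had fewer than 4, and 89.8% had at least 1.

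Enrichment, the deposited ratio of the signal at the summit to its local background, spread these starts from percentile 21.6 to percentile 79.9 of coding genes with a start summit, while the fragment pileup placed them from percentile 87.2 to percentile 99.9. Pileup here means how many fragments overlap the summit, recovered from the deposited enrichment and p-value. The settings of the peak caller are not given, so the unit counted could be a read instead, and it is called a fragment throughout. The median of the highest enrichment was 13.7 over the 6 members and 12.3 over the 10249 coding genes with a start summit. The median of the highest pileup was 2419.5 fragments over the 6 members and 818 over all. Local background at these summits was 7.26 to 19.8 times the lowest background of the list, 20.3 fragments, and higher than at 86.5% to 99.6% of coding genes with a start summit. Since enrichment is pileup over background, a start in a region of high background has a lower enrichment for the same pileup.

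**Figure D1:**
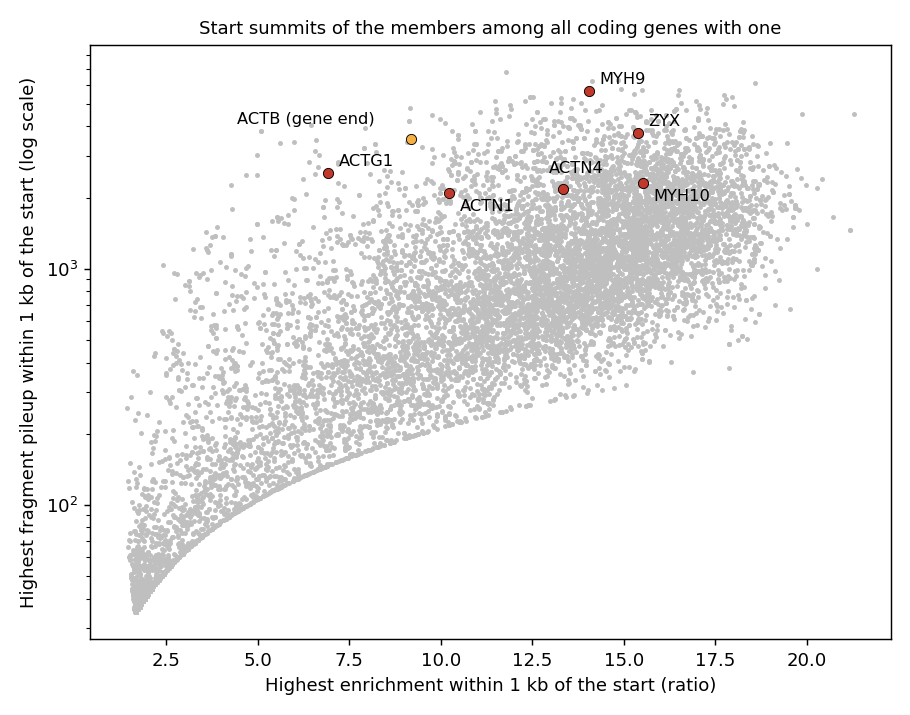
Highest enrichment (ratio, horizontal axis) against highest fragment pileup (log scale, vertical axis) within 1 kb of the start, 1 point per gene, for the 10249 coding genes with a start summit (grey), 6 members (red) and ACTB measured at its gene end (orange). The red points lie between 2096 and 5670 fragments, high in the cloud, but spread from 6.91 to 15.5 in enrichment.

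The start of ACTG1, which encodes cytoplasmic gamma-actin, had a summit 26 bp downstream, where 2537 fragments overlapped over a background of 366.2, an enrichment of 6.91 (−log10 q 1189). Its pileup exceeded that of 92.6% of coding genes with a start summit and its enrichment that of 21.6%. The interval spanned chr17:81512086-81513580. A second summit lay 2134 bp upstream with an enrichment of 4.07, and a 2509 bp interval beyond the other end of the gene held 5 summits with enrichments of 1.36 to 3.33. In all, 8 summits in 4 intervals lay in the ACTG1 window, 3.504 summits per 10 kb, a density above that of 99.5% of coding genes. That count rests on the flanks, with 1 summit in the gene itself, 16 within 25 kb and 5 of the 8 at a −log10 q of at least 10.

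ACTB encodes cytoplasmic beta-actin and is transcribed towards lower coordinates, so that its higher-coordinate end is the start. There 3546 fragments overlapped over a background of 384.8, an enrichment of 9.19 (−log10 q 2046), in the interval chr7:5529374-5530895. That pileup exceeds the start pileup of 97.8% of coding genes with a start summit, and the enrichment that of 31.2%. The other 8 summits of the ACTB window, all in the flanks, were weak, with enrichments of 1.21 to 1.83. Of these, 7 lay within LOC221946, a long noncoding RNA gene on the lower-coordinate side, where the local background was 201.0 to 250.1 fragments and the pileup 264 to 458. At the remaining summit, 8628 bp beyond the higher-coordinate end, the background was 29.3 fragments and the pileup 53. Both actin genes had their strongest summit at the start and a run of weaker ones past the lower-coordinate end. ACTG1 also had a summit 2134 bp upstream with an enrichment of 4.07, higher than the 3.33 of the strongest past its lower-coordinate end.

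**Figure D2:**
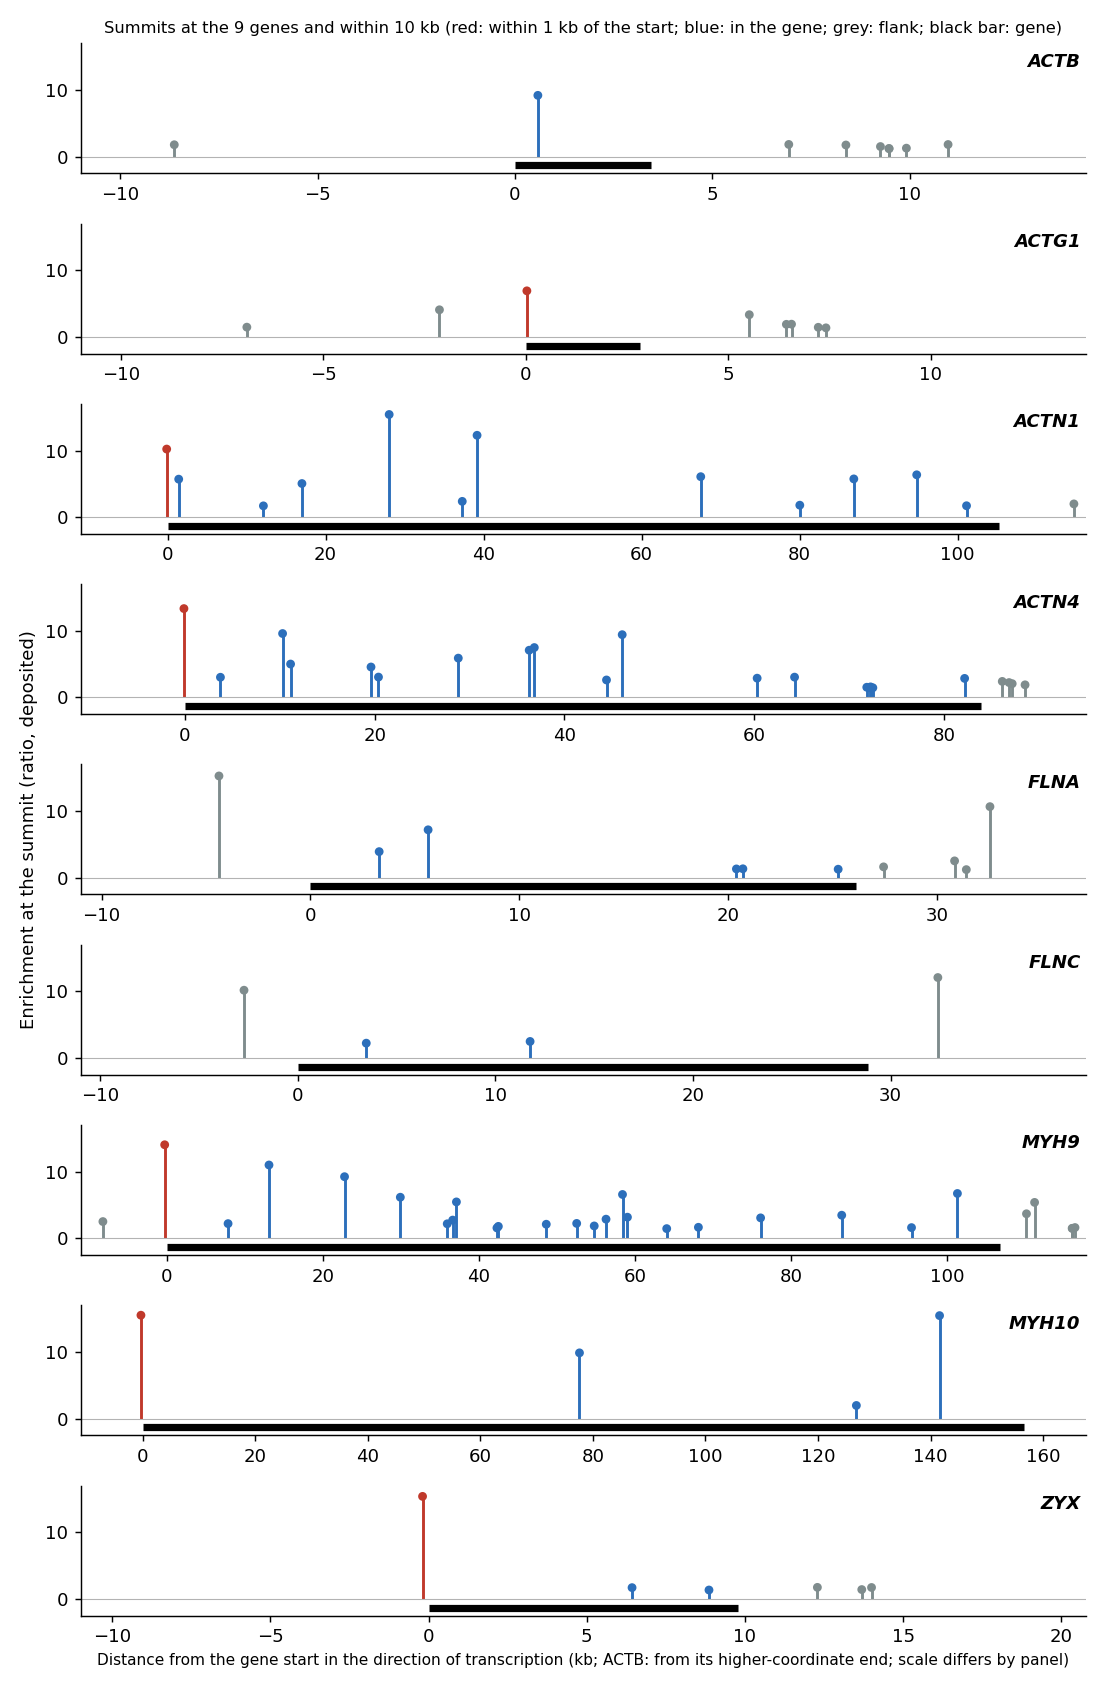
Enrichment (ratio, vertical axis) of each of the 104 summits against distance from the gene start in kb (horizontal axis, own scale per gene); red stems are within 1 kb of the start, blue in the gene, grey in the flanks, and black bars are the genes. ACTB is drawn from its higher-coordinate end; FLNA and FLNC have no red stem, and MYH9 has 28 summits where the longer MYH10 has 4.

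Alpha-actinin-1 and alpha-actinin-4 are the nonmuscle forms of a dimeric crosslinker that also links filaments to adhesions. The start summit of ACTN4, 109 bp upstream of the start (interval chr19:38647338-38647869), reached an enrichment of 13.3 (−log10 q 1571) and 2166 fragments. The start summit of ACTN1, also 109 bp upstream (interval chr14:68978753-68979876), reached 10.2 (−log10 q 1298) and 2096 fragments. Their pileups did not differ beyond counting error, with exact 95% Poisson intervals of 2076 to 2259 and 2007 to 2188, while the background was 161.5 fragments at ACTN4 and 204.1 at ACTN1. The first listed start of the noncoding gene ACTN1-DT lay 271 bp from the ACTN1 summit, so this summit has a gene on either side.

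Within ACTN1, the strongest summit by enrichment was not at the start. It lay 28.0 kb into the gene where 1615 fragments overlapped at an enrichment of 15.4 (interval chr14:68950810-68951687). Another lay 39.2 kb into the gene with 12.3 and 1186, and 2180 bp upstream of the last of the 4 listed ACTN1 starts. The summit 324 bp upstream of the third listed start, in the interval that holds the CArG box printed above, reached 5.71 with 1176 fragments. ACTN1 had 13 summits in its window and ACTN4 had 22, or 1.04 and 2.12 per 10 kb, above 74.2% and 96.0% of coding genes.

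ACTN4 also had a strong summit at its second listed start, 376 bp upstream of it and 46.1 kb into the gene. Its pileup of 2200 fragments (95% interval 2109 to 2294) overlapped that of the first start, and its enrichment was 9.42 over a background of 232.6. A summit 10.3 kb into the gene reached 9.60 with 985 fragments. Of its 22 summits, 17 lay in the gene away from the start, and the 4 summits beyond its end had enrichments of 1.90 to 2.41.

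The filamin genes had no summit near their starts. FLNA encodes the broadly expressed filamin A, and FLNC encodes filamin C, found mainly in muscle. Their upstream sequences are printed here for comparison with ACTG1. In FLNC (chr7:128830156-128830405, plus strand) the capitals mark CATTCC, the reverse complement of the TEAD motif GGAATG.
FLNC: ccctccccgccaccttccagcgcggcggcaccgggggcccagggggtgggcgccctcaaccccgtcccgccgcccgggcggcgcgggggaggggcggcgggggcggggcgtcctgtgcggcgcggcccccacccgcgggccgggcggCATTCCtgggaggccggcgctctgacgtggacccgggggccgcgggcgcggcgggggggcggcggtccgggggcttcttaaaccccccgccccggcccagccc

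At FLNA the summits nearest the start lay 4378 bp upstream and 3291 bp downstream, and no interval was called over 6671 bp between them (chrX:154371706-154378376). The upstream one was the strongest in the window by pileup, 5511 fragments with an enrichment of 15.3, but it lay 283 bp from the start of the neighbouring gene EMD, which encodes the nuclear envelope protein emerin. Another strong summit, 6427 bp past the far end of FLNA, reached 10.7 with 2702 fragments. Inside FLNA, the summit 3291 bp downstream reached 3.92 with 1643 fragments. The next, 5634 bp downstream (interval chrX:154368443-154369892), had 7.19 and 3071 fragments over a background of 426.1, the highest background of the 104 summits. Among the 301 summits of the whole list with a background between those on either side of the FLNA start (359.8 to 418.5 fragments), the lowest pileup called was 451. That is the lowest seen and not a calling limit, and the background at the start itself is not given by the list, so a signal too low to be called there is not shown to be absent.

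At FLNC no interval was called over 5046 bp around the start (chr7:128828478-128833523). The nearest summit lay 2730 bp upstream with 1535 fragments at an enrichment of 10.2, and no other gene start in the promoter table lay within 1000 bp of it. The 2 summits inside FLNC were weak, with enrichments of 2.23 and 2.49 and pileups of 188 and 151. The strongest summit of the window, with an enrichment of 12.1 and 1618 fragments, lay past the end of the gene, 57 bp from the start of ATP6V1F, a subunit gene of the vacuolar proton pump, and 173 bp from that of FLNC-AS1. Where the background was between those on either side of the FLNC start, 83.7 to 149.95 fragments, the lowest pileup called in the list was 113.

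GC content in the 300-base window was 78.3% in FLNA, close to the 77.3% of ACTG1 and the 76.0% of ZYX, which had a start summit. Of the 1412 coding promoters with a GC content of 75% to 80%, 82.9% had a start summit. FLNC had the highest GC content of the members, 83.3%, and of the 486 promoters at 80% to 85%, 76.1% had a start summit. The part of GC content in the missing calls was not tested.

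MYH9 and MYH10 encode the heavy chains of nonmuscle myosin IIA and IIB, motors that differ in how long they hold on to actin. Their upstream sequences are shown as the starts with the highest pileup and the highest enrichment among the members. Capitals mark CCAAT and GGAATG on either strand in MYH9 (chr22:36387968-36388217, minus strand) and MYH10 (chr17:8630726-8630975, minus strand).
MYH9: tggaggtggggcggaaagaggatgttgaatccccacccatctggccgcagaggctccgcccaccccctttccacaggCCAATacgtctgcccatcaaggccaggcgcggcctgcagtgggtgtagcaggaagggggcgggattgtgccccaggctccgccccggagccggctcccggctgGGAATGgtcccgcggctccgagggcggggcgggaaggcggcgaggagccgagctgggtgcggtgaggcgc
MYH10: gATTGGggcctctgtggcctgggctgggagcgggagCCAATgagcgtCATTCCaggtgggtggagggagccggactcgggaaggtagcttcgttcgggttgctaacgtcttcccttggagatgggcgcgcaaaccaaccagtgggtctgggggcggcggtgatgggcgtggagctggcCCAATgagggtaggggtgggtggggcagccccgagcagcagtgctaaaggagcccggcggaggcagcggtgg

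CCAAT occurred in 5 of 8 member windows and in 36.4% of coding promoters, and GGAATG in 3 of 8 and 11.8%. GGGCGG, the core of the Sp1 motif, occurred in all 8 and in 58.3%. TATAAA occurred in none of the 8 and in 9.75%. The AP-1 motif TGANTCA occurred in ACTN4 alone of the members and in 5.70% of coding promoters. A match says only that the letters are there.

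The start summit of MYH9 lay 236 bp upstream, at base 15 of the printed run, and had a pileup of 5670 fragments (95% interval 5523 to 5820), above that of 99.9% of coding genes with a start summit. Its enrichment was 14.0 and its −log10 q 4222, over a background of 403.0 fragments (interval chr22:36387701-36388582). A start of the noncoding gene MYH9-DT lay 119 bp from the same summit. At MYH10 the start summit, 286 bp upstream (interval chr17:8630609-8631603), had a pileup of 2302 fragments (2209 to 2398) over a background of 147.5, which gave the higher enrichment, 15.5. The −log10 q of MYH10 was 1811.

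Beyond the start the myosin genes differed most. MYH9 spans 106.7 kb and had 28 summits in 22 intervals in its window, of which 21 lay in the gene away from the start. MYH10 spans 156.5 kb and had 4 summits in 4 intervals, of which 3 lay in the gene away from the start. Called intervals covered 14.2 kb, 11.2% of the MYH9 window, and 2.71 kb, 1.54% of the MYH10 window. In summits per 10 kb MYH9 had 2.21, above 96.7% of coding genes, and MYH10 0.227, above 20.9%; the median was 0.589. With summits limited to a −log10 q of at least 10, MYH9 kept 20 and MYH10 3.

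The few summits in MYH10 included strong ones. The summit 141.6 kb into the gene reached an enrichment of 15.5 with 727 fragments over a background of 46.1 (interval chr17:8488714-8489451), an enrichment indistinguishable from that of the start by counting error (14.4 to 16.6 against 14.9 to 16.2). Another, 77.6 kb in, had 9.86 and 217 fragments. In MYH9 the strongest inside the gene lay 13.1 kb and 22.8 kb from the start, with enrichments of 11.0 and 9.25 and pileups of 760 and 868. A pair of summits in 1 interval 58.4 to 59.0 kb from the start had pileups of 1702 and 823 over a background near 258 fragments, the highest pileup inside the gene.

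ZYX had 1 dominant summit, 191 bp upstream of the start and at base 60 of the printed run, where 3763 fragments overlapped at an enrichment of 15.4 and a −log10 q of 2943 (interval chr7:143380289-143381664). The pileup exceeded that of 98.3% of coding genes with a start summit. The CArG-like box began 106 bases before the start, 85 bp from the summit. The summit also lies within FAM131B and 129 bp from the start of FAM131B-AS2. The other 5 summits in the ZYX window had enrichments of 1.33 to 1.73 and pileups of 108 to 143, and 3 of them lay in the neighbouring gene EPHA1. At a −log10 q of at least 10 the start summit alone remained of the 6.

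Ordered by enrichment at the start, with ACTB at its gene end, the members ran MYH10 (15.5), ZYX (15.4), MYH9 (14.0), ACTN4 (13.3), ACTN1 (10.2), ACTB (9.19) and ACTG1 (6.91). MYH10 and ZYX had overlapping counting intervals, as did MYH9 and ACTN4, and no other neighbours in that order did. By pileup the order was MYH9 (5670), ZYX (3763), ACTB (3546), ACTG1 (2537), MYH10 (2302), ACTN4 (2166) and ACTN1 (2096). There the intervals of ZYX and ACTB, of MYH10 and ACTN4, and of ACTN4 and ACTN1 overlapped. These intervals cover counting error only and say nothing of the spread between libraries.

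Over all 104 summits the median enrichment was 2.50 and the median pileup 260.5, against 4.27 and 101 over the whole list. The 79 intervals were 254 to 2509 bp long, and 64 of them held a single summit. Enrichment was at least 10 at 13 of the 104 summits, and that share was not computed for the whole list. Among the 13 were the summits 283 bp from the start of EMD and 57 bp from the start of ATP6V1F. One summit, in MYH10, had the lowest background of the list.

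Other genes of the actin system had called starts more often than not, and the muscle paralogs rarely did. Of the muscle or tissue-restricted actin, alpha-actinin and myosin genes with a listed start, 1 of 11 had a start summit. It was ACTA2, the smooth muscle actin that myofibroblasts also make, with 468 fragments at an enrichment of 9.39. This summit lies near the outermost listed start of ACTA2, and whether it also lies near the start of another gene was not examined. ACTA1, ACTC1, MYH1 and MYH2, the skeletal and cardiac actins and 2 skeletal myosins, had none. Of all 16 genes of that list, 5 had no summit even within 10 kb, while 89.8% of all coding genes had at least 1 there. All 5 were myosin heavy chain genes, and the listed starts among them lay between bases 10421950 and 10549658, so they are not separate regions. Genes of this stretch also count in the 1 of 11. MYH14, the heavy chain gene of nonmuscle myosin IIC, had no start summit and 4 summits in its window.

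Myosin light chains and regulators had a start summit at 10 of the 11 genes with a listed start, with a median enrichment of 14.8. PPP1R12A, the targeting subunit of myosin phosphatase, had 17.4 and ROCK1, a kinase that raises myosin activity, had 17.1. The lowest were ROCK2 with 8.83 and the light chain gene MYL6 with 9.76. MYLK, the myosin light chain kinase gene, had no start summit but 29 summits in its window.

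Other crosslinkers and side binders had a start summit at 15 of the 18 genes with a listed start, with a median of 8.93. Tropomyosin TPM3 (14.7) and calponin CNN3 (14.5) were highest, and drebrin DBN1 (2.58) and calponin CNN2 (3.07) lowest. PALLD, CNN1 and MARCKS had none, and PALLD had 21 summits in its window. Zyxin partners and focal adhesion genes had one at 16 of the 16 with a listed start, of 17 in the list, with a median of 9.74. LIMS1 (17.3) and PDLIM5 (14.6) were highest, and ENAH (3.07) and PDLIM7 (5.00) lowest.

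Actin assembly genes had a start summit at 14 of the 15 with a listed start, with a median of 13.7. The formin DIAPH1 (18.0) and gelsolin, GSN (17.2), were highest, and TMSB4X, a monomer-binding peptide gene, had none. The lowest of them by enrichment were the profilin gene PFN1, with 4.81 and 1330 fragments, and the cofilin gene CFL1, with 6.61 and 3522 fragments. These shares stand beside the 64.7% of all coding genes with a listed start, and genes of a list are not replicates. The medians stand beside the median start enrichment of 12.3 over all coding genes with a start summit. Those of other crosslinkers (8.93) and zyxin partners (9.74) lay below it. Those of actin assembly genes (13.7) and of myosin light chains and regulators (14.8) lay above it. Either gene end can be counted for whole lists, and 65.7% of all coding genes had a summit there. So did 12 of 12 myosin light chains and regulators, 18 of 21 other crosslinkers and 16 of 17 zyxin partners. The counts were 14 of 16 for actin assembly genes and 3 of 16 for muscle paralogs.

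**Figure D3:**
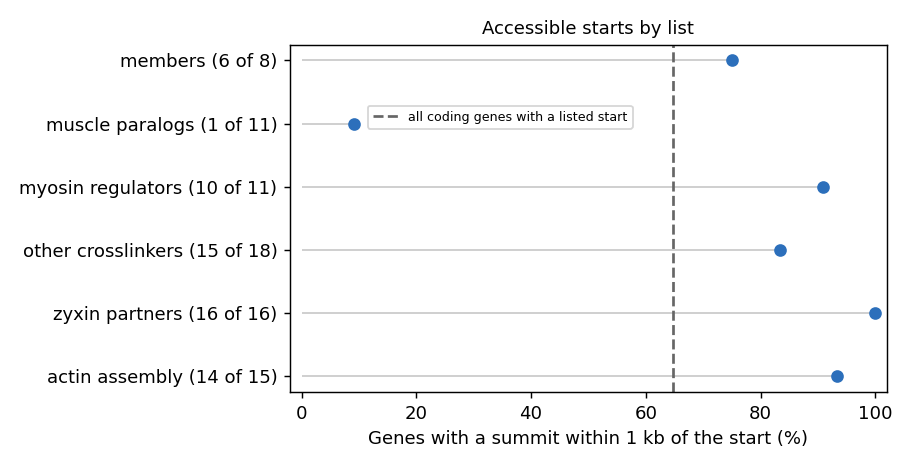
Share of genes with a summit within 1 kb of the listed start (%, horizontal axis) for the members and 5 lists of related genes, with the counts beside each name; the dashed line is the 64.7% of all coding genes with a listed start. The muscle paralogs (1 of 11) lie left of the line and the other lists right of it. Exact 95% binomial intervals, not drawn, take genes as independent. Those of the members (34.9% to 96.8%), myosin regulators (58.7% to 99.8%) and other crosslinkers (58.6% to 96.4%) include the line. Those of zyxin partners (79.4% to 100%), actin assembly genes (68.1% to 99.8%) and muscle paralogs (0.23% to 41.3%) do not.

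The labelled cell type was compared with marker genes at either gene end, where 65.7% of coding genes had a summit. Of 9 mesenchymal markers 6 had one (VIM, FN1, CD44, COL6A1, COL6A2 and SPARC) and NT5E, THY1 and TGFBI had none, a share near that of all coding genes. Of 6 epithelial markers 1 did (EPCAM), of 4 blood markers 2 did (CD3E and SPI1), and of 4 skeletal and 3 smooth muscle markers none did.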

How the data were processed

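Per the labels' protocols, cells were recovered from the gels with collagenase, frozen, thawed and processed by Omni-ATAC, with 11 PCR cycles and paired reads of 150 bp. The submitters' processing notes name fastp 0.20.0, Bowtie2 2.4.3, deepTools 3.5.0, SAMtools, MACS2 2.2.7.1 and the build hg38, without their settings. Duplicate removal, any control and how the libraries were combined are not given in the sources used here. The deposited file was 1 peak list without a library column, so the depth per library is unknown and the planned tests between concentrations were not run.

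The authors' enrichment was read as a ratio, their p and q as −log10 values, and their score as −log10 q times 10 (true after truncation in 99.8% of lines). Pileup and background were solved from enrichment = (pileup + 1)/(background + 1) and a Poisson upper tail; 99.96% of lines gave a whole pileup within 0.05. The 80 other lines all had pileups of 1130 or more, a range that includes the start summits of the members. On data simulated with the same formula, 4879 cases were recovered in 100.0%. Those cases had lower enrichments and lower −log10 p than the members' start summits, so they do not test the recovery there. Intervals on pileups are exact Poisson intervals and take the counted fragments as independent, which was not tested.

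Starts were the outermost in the RefSeq promoter table (GRCh38.p14; 250 bases before to 50 after). Genes came from the RefSeq gene table, which gives no exons, so exon or intron position was not used here. Percentiles count coding genes with a start summit below the value, or all coding genes for densities. Python 3.11.15, numpy 2.4.6, pandas 2.3.3 and scipy 1.17.1 were used.

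Named are the members, the genes sharing a described summit and, of each list, the highest and lowest 2 by start enrichment and up to 4 without a start summit. PALLD's and MYH14's window counts and the marker genes named were chosen after their values were seen. One gene of the lists is not reported here. Members and lists were chosen with earlier results of these data known. Alternatives were the start window, flank, q threshold and unit counted.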

Additional observations from a re-analysis of the deposited data

How the results depend on the processing

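The 6 members with a start summit stayed 6 with windows of 500 and 2000 bp, with a −log10 q of at least 10 and, in a setting chosen after seeing the data, with any listed start; at either gene end 8 of 9 had one, ACTB and FLNA being added, FLNA through a summit of enrichment 1.28 at its far end. The 104 summits became 63 inside the gene bodies, and 71 to 143 under the other 4 settings. The median start enrichment of 13.7 was the same with both windows. The median percentile of the 6 starts among coding genes was 62.5 by enrichment and 91.3 by pileup. The share of coding genes with a start summit, 64.7%, was 59.8% at 500 bp, 69.3% at 2000 bp and 60.2% at a −log10 q of at least 10. Counts for single genes changed by over 1.5 times at 5 of 9 members without flanks, 1 with 5 kb, 3 with 25 kb and 4 at the stricter q. For ACTB the 9 summits became 1 without flanks and 3 with 5 kb, for ACTG1 the 8 became 1 without flanks, 16 with 25 kb and 5 at the stricter q, and for ZYX the 6 became 1 at the stricter q. No paired analysis was possible because the list holds no value per library; fits without single replicates were not run for the same reason.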

Other observations

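ACTB and ACTG1 have many processed copies in the genome, and reads from their exons can match more than 1 place. Of 35 pseudogenes named after either gene, 11 held a summit. The share for other pseudogenes was not computed, so the count is not read as high or low. The summits at these pseudogenes were weak: the highest pileup was 67 fragments, at ACTG1P4, with an enrichment of 3.16, and the others had at most 60. The start summits of the parent genes had 2537 (ACTG1) and 3546 (ACTB) fragments. How reads matching several places were treated is not given in the sources used here, so the pileups inside these genes are uncertain.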
